A study of Mus musculus with 22 samples.

Results

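TM, one of the waters labelled deep sea water, was compared with distilled water in the colon of mice that received dextran sulfate sodium (DSS), a sulfated sugar polymer given in drinking water to produce colitis by damage to the epithelium. The libraries were chosen by their group labels, 5 of TM (replicates 3, 5, 6, 7 and 8) and 5 of DSS (replicates 1, 2, 5, 6 and 7), 10 of the 22 libraries of the study. All mice were wild type BALB/c mice, and both groups received 5% DSS for 1 week. The DSS group drank distilled water and the TM group drank the TM water. Drinking lasted 3 weeks from an age of 5 weeks, with DSS in the last of these weeks. The design text instead places DSS after the water, in mice 8 weeks old, and the difference could not be settled. The remaining libraries were 8 of CON, which drank distilled water and received no DSS, and 4 of HMLS, which drank another water labelled deep sea water and received DSS. Neither abbreviation, TM or HMLS, is explained in the labels. No gene, promoter or allele was manipulated. No label ties a library to its own animal, so p-values measure only the spread between these samples, which may be technical.

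The colon mucosa holds absorptive colonocytes and goblet cells above a lamina propria rich in plasma cells, which secrete IgA, and in resident macrophages, which clear debris and bacteria. DSS damages the epithelial layer, so that luminal bacteria reach the lamina propria and draw in neutrophils and inflammatory macrophages. Fat, smooth muscle, vessels and lymphoid follicles are also present in whole colon, and their share in a piece of tissue depends on where it was cut. In bulk tissue, fewer cells of a type and less RNA per cell cannot be told apart.

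Levels are given as FPKM, a value scaled to transcript length and to the size of the library. Differences are TM minus DSS on the log2(FPKM + 1) scale with the standard error of the limma fit, and they understate the change of genes near or under 1 FPKM. The tissue label held in all 10 libraries, since the carbonic anhydrase Car1 of colonocytes was at 1948 to 6185 FPKM, the goblet cell mucin Muc2 at 2118 to 6368 FPKM and the epithelial lectin Lgals4 at 1991 to 2751 FPKM. Summed over 16 general epithelial markers, the level was 6509 to 9630 FPKM in DSS and 6870 to 9707 FPKM in TM. Summed over 20 smooth muscle genes it was 1333 to 4241 FPKM in DSS and 1937 to 3686 FPKM in TM, so both groups overlapped in these tissue compartments.

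No gene differed between TM and DSS at an adjusted p under 0.05. Of 23997 genes in the table, 13341 passed the filter on low values and were tested with limma, and the lowest Benjamini-Hochberg adjusted p was 0.999957. An unadjusted p under 0.05 was reached by 367 genes (2.75%), of which 247 (1.85%) had higher values in TM and 120 (0.899%) lower values. With the replicate numbers as a block (325 higher, 288 lower) still none passed. In that fit DSS replicates 1 and 2 add nothing to the difference, since no HMLS or TM library has these numbers. Without DSS replicate 1 or DSS replicate 5 the lower count was 231, and without TM replicate 6 the higher count was 141. All 5 TM libraries lay outside the range of the 5 DSS libraries for 62 genes (0.465%), 40 of them higher in TM (0.3%) and 22 lower (0.165%). A difference of at least 2-fold was found for 28 genes, 15 higher and 13 lower, and the median difference over all genes tested was 0.00236. What follows therefore describes values and gene groups whose differences did not pass, and no statement below is of a called gene.

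The libraries themselves differed between the groups. The percent of reads mapped was 88.9, 88.0, 88.5, 85.1 and 82.3 in DSS replicates 1, 2, 5, 6 and 7, and 92.7, 89.5, 92.3, 92.0 and 91.1 in TM replicates 3, 5, 6, 7 and 8. Every TM library lay above every DSS library (mean 91.5 against 86.6). An exact permutation test, two-sided, gave p = 0.00794, and 0.0317 after adjustment over the 4 measures. No smaller p can be had from 5 against 5 libraries. The 10 most abundant genes held 15.2% ± 0.818 of the summed FPKM in TM and 17.8% ± 1.44 in DSS (SD, n = 5 each, exact permutation p = 0.0238, adjusted p = 0.0476). Rn45s, the ribosomal RNA precursor, was at 3922, 8600, 3758, 14743 and 6508 FPKM in DSS and at 5661, 5513, 3222, 3280 and 2947 FPKM in TM, in the same order of replicates. The highest values of Rn45s were thus in DSS libraries and the groups overlapped. Neither the number of reads (exact permutation p = 0.0794, adjusted p = 0.106) nor the number of genes at 1 FPKM or more (p = 0.476 for both raw and adjusted, same test) differed beyond the spread. Because the mapped shares of the groups do not overlap, the water and the mapped share cannot be told apart. With that share as a covariate, the differences of 31 of the 67 genes given below moved by over 1.5 times or changed sign, and some of these values are given beside the results. That fit is less precise: the standard errors of Mzb1 and Ggt1, for example, were 0.443 and 0.352, against 0.269 and 0.229 without the covariate.

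**Figure D1:**
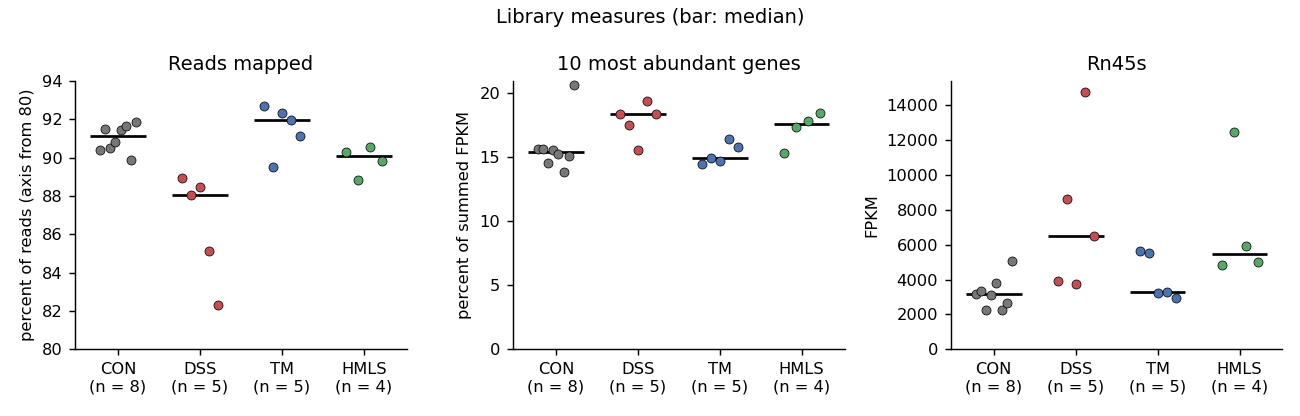
Percent of reads mapped (axis from 80), share of the summed FPKM in the 10 most abundant genes, and FPKM of Rn45s, for each library of the 4 groups, with the group median as a bar. The TM libraries lie at 89.5% to 92.7% mapped and the DSS libraries at 82.3% to 88.9%, without overlap.

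B cell, macrophage and endothelial gene groups had higher median values in TM, and clock, colonocyte and immediate early groups lower ones. Among the 37 lists, the medians furthest above 0 among lists with at least 10 tested members were those of B cell genes (0.59 over 16 tested of 24), macrophage genes (0.49 over 24 of 30), matrix proteases (0.37 over 10 of 13) and endothelial genes (0.33 over 17 of 19). The medians furthest below 0 were those of clock genes (-0.22 over 18 of 19), colonocyte genes (-0.21 over 30 of 34) and immediate early genes (-0.20 over 22 of 26). The medians of the B cell, macrophage, endothelial and matrix protease lists stayed above 0 under every setting tried, those of the 3 lower lists did not stay below it. The matrix protease median was 0.07 with the replicate block, where 1 gene had an unadjusted p under 0.05 against none without it, and 0.64 without DSS replicate 7. Of the tested members, 6 of the B cell list, 3 of the macrophage list and 2 of the matrix protease list would not have passed the filter without the TM libraries. Without the DSS libraries 4, 1 and 2 members of these lists would not have passed it. These medians are therefore no support for a difference.

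**Figure D2:**
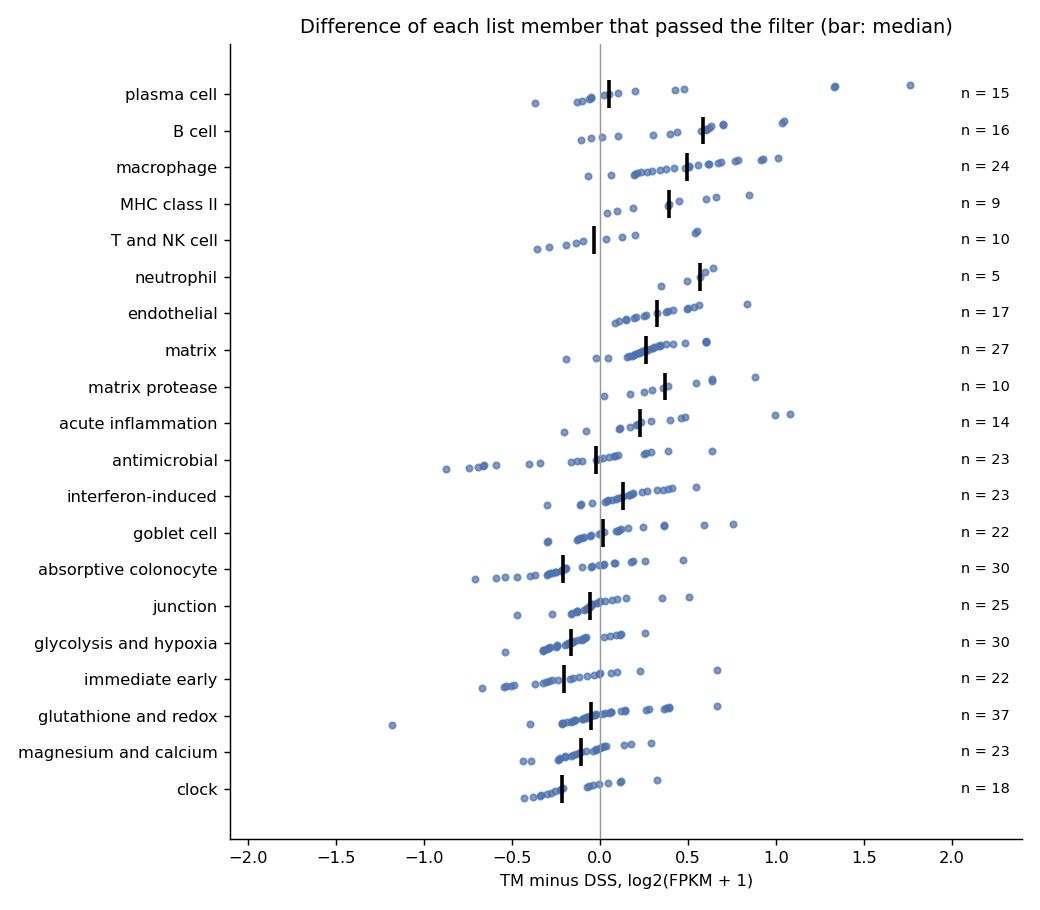
TM minus DSS difference on the log2(FPKM + 1) scale of each list member that passed the filter (points) and the median of the list (bar) for 20 lists, with the number of members tested at the right. Macrophage and endothelial members lie almost all to the right of 0, with medians of 0.49 and 0.33, while the median of the plasma cell list is near 0 although 3 of its genes lie above 1.

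Plasma cells, the antibody-secreting cells of the mucosa, were represented by 3 genes with higher values in TM. Mzb1, a chaperone of the endoplasmic reticulum that assists antibody assembly, was at 0.499, 0, 0.171, 0.296 and 0.241 FPKM in DSS and at 2.58, 2.53, 4.83, 1.44 and 0.581 FPKM in TM. All TM libraries lay above all DSS libraries, with TM replicate 8 the nearest to them. The difference was 1.33 ± 0.269, the second smallest p of all genes tested. Mzb1 reached 1 FPKM in 4 TM libraries and in no DSS or HMLS library, so it passed the filter on low values through TM alone. With TM replicate 8 left out it had the lowest adjusted p of any setting (limma, 0.0771).

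Pou2af1, a coactivator that B cells need to form germinal centres (chromosome 9, 51213708 to 51240080, plus strand), was at 1.68, 2.56, 1.84, 0.712 and 0.464 FPKM in DSS and at 4.95, 5.05, 10.1, 3.66 and 2.72 FPKM in TM. Again no TM library fell into the DSS range, with a difference of 1.33 ± 0.298. Igj, which encodes the J chain that joins IgA and IgM into polymers (chromosome 5, 88519809 to 88527891, minus strand, under the name Jchain), was at 19.0, 7.83, 4.51, 5.53 and 3.59 FPKM in DSS. In TM it was at 73.7, 10.3, 73.1, 13.4 and 13.4 FPKM. TM replicates 3 and 6 stood far above the other libraries and the remaining TM libraries overlapped with DSS replicate 1, for a difference of 1.76 ± 0.569. With the mapped share as a covariate the differences were 1.28 ± 0.443 for Mzb1, 0.59 ± 0.419 for Pou2af1 and 0.19 ± 0.763 for Igj, with larger standard errors than without it.

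The rest of the plasma cell list did not share this. Of its 20 genes 15 were tested, with a median of 0.05 (9 above 0, 6 below). An unadjusted p under 0.05 was reached by 3 with higher values and by none with lower values, against 1.85% and 0.899% of all genes tested. With the mapped share as a covariate 2 had one with higher values and 3 with lower values, with a median of -0.07. Over all genes tested that fit gave 404 higher and 197 lower of 13341. The list median was 0.26 with the replicate block, 0.20 without DSS replicate 1 and 0.01 without TM replicate 5. The summed level of the list was 601 to 1066 FPKM in DSS and 671 to 937 FPKM in TM. Where DSS was not given, the CON medians were 2.73 FPKM for Mzb1, 5.27 FPKM for Pou2af1 and 74.0 FPKM for Igj. In HMLS the medians were 0.0815, 1.18 and 4.74 FPKM. The TM median was near the CON median for Mzb1 and Pou2af1 and lay between DSS and CON for Igj.

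B cell genes, which mark the lymphoid follicles of the colon wall, had higher values in 14 of 16 tested. Cd79b, a signalling chain of the B cell receptor, was at 1.60, 2.46, 0.949, 0.386 and 0.143 FPKM in DSS and at 2.60, 4.66, 8.64, 1.41 and 1.12 FPKM in TM (difference 1.03 ± 0.418). TM replicate 6 was the highest library and TM replicates 7 and 8 lay within the DSS range. Fcrl1, a B cell surface receptor, differed by 0.70 ± 0.224, Spib, a transcription factor of B cells and of the epithelium over follicles, by 0.70 ± 0.283, and Pax5, the identity factor of B cells, by 0.58 ± 0.267. With the mapped share as a covariate the differences of Cd79b, Fcrl1, Spib and Pax5 were 0.37 ± 0.651, 0.38 ± 0.353, 0.11 ± 0.421 and 0.08 ± 0.405. These 4 were the members with an unadjusted p under 0.05, against 1.85% of all genes tested with higher values. Of the 16, 6 would not have passed the filter without the TM libraries, and 4 not without the DSS libraries. TM replicate 6 held the highest value of the 10 libraries for 15 of 24 B cell genes and for 9 of 23 T and NK cell genes, against 6.27% of all genes tested. The count of 4 was 9 with the replicate block, 7 without DSS replicate 2, 1 without DSS replicate 6 or DSS replicate 7, and 0 without TM replicate 5 or TM replicate 6. Over all genes tested the higher count was 325 of 13341 with the block and 233 of 13309 without DSS replicate 2. The list median was 0.35 without TM replicate 6 and 0.13 with the mapped share as a covariate.

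**Figure D3:**
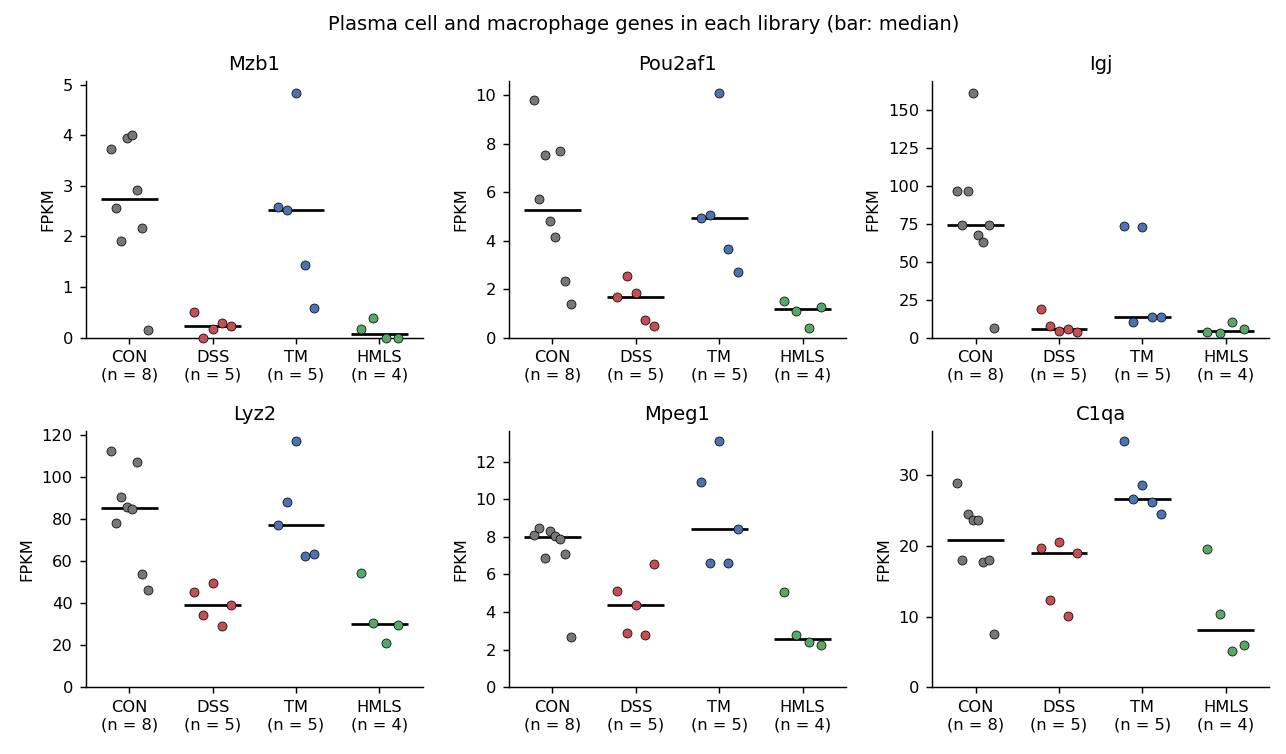
FPKM of 3 plasma cell genes (Mzb1, Pou2af1, Igj) and 3 macrophage genes (Lyz2, Mpeg1, C1qa) in each library of the 4 groups, with group medians as bars. For each gene except Igj all TM points lie above all DSS points, and for Lyz2 they lie at 62.4 to 117 FPKM against 29.0 to 49.7 FPKM.

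Macrophage genes had higher values in TM in nearly every member tested. Lyz2, the lysozyme of macrophages and neutrophils (chromosome 10, 117277331 to 117282321, minus strand), was at 45.4, 34.6, 49.7, 29.0 and 39.0 FPKM in DSS and at 77.3, 88.1, 117, 62.4 and 63.3 FPKM in TM. The lowest TM library lay above the highest DSS library, and the difference was 1.01 ± 0.234. Lyz1, the neighbouring lysozyme gene of Paneth cells, differed by 0.76 ± 0.232, also without overlap. The longest transcripts of both genes share 195 stretches of 50 bases, 15.4% of those of Lyz2, so reads could be split between them.

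Mpeg1, which encodes the pore-forming perforin-2 of macrophages, was at 5.15, 2.87, 4.38, 2.80 and 6.53 FPKM in DSS and at 10.9, 6.61, 13.1, 6.59 and 8.43 FPKM in TM (difference 0.93 ± 0.242). TM replicates 5 and 7 lay only just above DSS replicate 7. C1qa, a chain of the complement component C1q made by tissue macrophages, was at 19.8, 12.4, 20.6, 10.1 and 19.0 FPKM in DSS and at 34.8, 26.6, 28.6, 26.2 and 24.5 FPKM in TM (0.78 ± 0.284). C1qc, another chain of it, differed by 0.92 ± 0.315 with overlapping groups. Ms4a6b, a membrane protein of myeloid and lymphoid cells that was not in the list, differed by 0.90 ± 0.219.

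Of the 30 macrophage genes 24 were tested. To pass the filter, 3 of these needed the TM libraries and 1 the DSS libraries. Values were higher in TM for 23 of 24. An unadjusted p under 0.05 was reached by 8 with higher values and by none with lower values, against 1.85% and 0.899% of all genes tested. The count was 4 with the replicate block and 2 with the mapped share as a covariate. Over all genes tested the higher counts in these fits were 325 and 404 of 13341. The groups did not overlap for 4 members, all higher in TM, against 0.3% of all genes. Lyz1, a gene of Paneth cells that may share reads with Lyz2, is counted among these 4 and among the 8. Summed over the list, the level was 500, 367, 414, 323 and 548 FPKM in DSS and 641, 544, 599, 616 and 547 FPKM in TM, so that only DSS replicate 7 reached the TM libraries. The list median was 0.34 to 0.64 when single libraries were left out and 0.54 with the mapped share as a covariate. The medians of Lyz2, Mpeg1 and C1qa were 85.2, 7.98 and 20.8 FPKM in CON and 30.1, 2.59 and 8.16 FPKM in HMLS.

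Other antigen-presenting and lymphoid genes were mixed. Genes of MHC class II, which present peptides to CD4 T cells, had higher values in TM for 9 of 9 tested (of 11 listed). Of the 9, 1 needed the TM libraries to pass the filter and 1 the DSS libraries. An unadjusted p under 0.05 was reached by 2, against 1.85% of all genes tested with higher values. These were H2-DMb2, a subunit of the peptide-loading factor (0.85 ± 0.293), and H2-Ob, which restrains that factor in B cells (0.66 ± 0.251). With the mapped share as a covariate these were 0.33 and 0.40. Ciita, the master activator of the class, was at 1.54, 2.09, 3.02, 1.21 and 8.13 FPKM in TM and at 0.758 to 2.51 FPKM in DSS (0.60 ± 0.319), with TM replicate 8 alone far outside. The median of the class was 0.39, and 0.09 without TM replicate 8. Without TM replicate 7 it was 0.61 and 4 genes had an unadjusted p under 0.05, and without TM replicate 5 or TM replicate 6 the number was 1. Itgax, the CD11c integrin of dendritic cells and macrophages, differed by 0.49 ± 0.163, and 0.17 with that covariate.

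Il7r, the receptor for the survival cytokine IL-7 on lymphocytes, was at 0.932, 0.507, 0.714, 0.413 and 1.02 FPKM in DSS and at 1.09, 1.59, 1.99, 1.41 and 1.39 FPKM in TM. Its groups did not overlap, and its difference was 0.54 ± 0.140. It reached 1 FPKM in every TM library, among DSS libraries only in replicate 7, and in no HMLS library. Il7r thus passed the filter on low values only through TM. Cd4, the T helper coreceptor, differed by 0.55 ± 0.265 (0.18 with the mapped share as a covariate), Ets1, a transcription factor of lymphocytes and vessels, by 0.51 ± 0.146, and Gimap3, a GTPase of lymphocyte survival, by 0.58 ± 0.172. Over the 23 T and NK cell genes, however, 5 of 10 tested lay above 0 and 5 below, with a median of -0.03. Of the 10, 2 needed the TM libraries to pass the filter and 1 the DSS libraries. Only Il7r had an unadjusted p under 0.05, against 1.85% of all genes tested with higher values. With the replicate block 3 had one, against 325 of all 13341 genes with higher values.

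Vessel genes had slightly higher values throughout the list. All 17 tested endothelial genes lay above 0, with a median of 0.33, and 3 had an unadjusted p under 0.05 (1 with the replicate block, and 1 without DSS replicate 6 or TM replicate 7), against 1.85% of all genes tested. Without DSS replicate 2 the median was 0.20. Vwf, the clotting factor stored in endothelial cells, was at 2.37, 2.68, 2.31, 3.46 and 2.92 FPKM in TM, all above the highest DSS library, and had a DSS median of 1.61 FPKM (0.57 ± 0.184). Tie1, an endothelial receptor kinase, was at 1.13 to 1.84 FPKM in DSS and at 2.18 to 3.21 FPKM in TM (0.50 ± 0.216). Tie1 did not overlap between the groups either, and these 2 members compare with 0.3% of all genes without overlap and higher in TM. Ackr1, the chemokine-binding receptor of venules, differed by 0.83 ± 0.371, and 1.67 with the mapped share as a covariate. Esam, an endothelial adhesion molecule, differed by 0.42 ± 0.206. Vcam1, an adhesion molecule on activated endothelium and stromal cells, was at 3.14, 1.69, 3.75, 1.55 and 2.28 FPKM in DSS and at 6.93, 4.91, 5.99, 6.81 and 2.89 FPKM in TM (0.90 ± 0.250). Only TM replicate 8 lay within the DSS range.

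Matrix genes also lay above 0 in 25 of 27 tested (median 0.26), but TM replicate 3 held the highest value for 23 of the 27 (14.3% of all genes tested). Without that library the median was 0.08, without DSS replicate 2 it was 0.10, and with the replicate block it was -0.05. Col1a1, the main fibrillar collagen, was at 63.9 FPKM in TM replicate 3 and at 8.02 to 20.9 FPKM in the other 9 libraries. Eln, which encodes elastin, differed by 0.60 ± 0.243 and Fbn1, the microfibril protein, by 0.30 ± 0.143. They were the 2 matrix genes with an unadjusted p under 0.05, against 1.85% of all genes tested with higher values. None reached it without DSS replicate 2, TM replicate 3 or TM replicate 5 or with the block, and 1 did without DSS replicate 6 or TM replicate 8. Dnm3os, a noncoding transcript antisense to Dnm3 that is made in stromal cells, differed by 0.58 ± 0.158 without overlap. The sources used here do not state strand use in the counting, so its reads and those of Dnm3 cannot be told apart.

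A few epithelial and growth genes had higher values in TM. Foxq1, a forkhead transcription factor, was at 2.08, 2.45, 2.93, 2.23 and 1.68 FPKM in DSS and at 6.13, 3.16, 3.34, 4.10 and 3.35 FPKM in TM (0.60 ± 0.164). Npm1, a nucleolar chaperone of ribosome assembly, was at 108 to 134 FPKM in DSS and at 139 to 184 FPKM in TM (0.42 ± 0.119). Lgals4, a lectin of the enterocyte surface, differed by 0.26 ± 0.104. The groups did not overlap for these 3 genes. Among genes of the repairing epithelium, Clu differed by 0.92 ± 0.372 and S100a6 by 0.49 ± 0.188 (0.02 with the mapped share as a covariate). They were the only 2 of 17 tested with an unadjusted p under 0.05, against 1.85% of all genes tested with higher values. The list had a median of 0.29. With the replicate block 2 other members had an unadjusted p under 0.05 with lower values, none had one with higher values, and the median was -0.11. Over all genes tested 288 of 13341 had one with lower values with the block.

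Ggt1 had the smallest p of all genes tested. It encodes gamma-glutamyltransferase, the surface enzyme that starts the breakdown of extracellular glutathione (chromosome 10, 75561604 to 75586200, plus strand). It was at 11.3, 15.3, 9.32, 13.8 and 7.27 FPKM in DSS and at 5.02, 3.46, 2.92, 4.71 and 6.03 FPKM in TM. All TM libraries lay below all DSS libraries, and the difference was -1.18 ± 0.229, or 2.27-fold lower in TM on the log2(FPKM + 1) scale. The value was -1.10 with the replicate block and -1.58 with the mapped share as a covariate, and leaving out single libraries gave -1.32 to -1.07. The medians were 7.01 FPKM in CON and 5.27 FPKM in HMLS, so DSS was the highest of the 4 groups.

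The other genes of glutathione and redox metabolism did not share this difference. Of 37 tested, 22 lay below 0, with a median of -0.05, and Ggt1 was the only one with an unadjusted p under 0.05 and lower values. Over all genes tested 0.899% had one with lower values and 1.85% with higher values. Gstm1, a glutathione transferase, had higher values at an unadjusted p under 0.05 (0.36 ± 0.171). With the replicate block 2 genes of the list did, against 325 of all 13341. Gsto1, another transferase, differed by -0.21 ± 0.117.

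**Figure D4:**
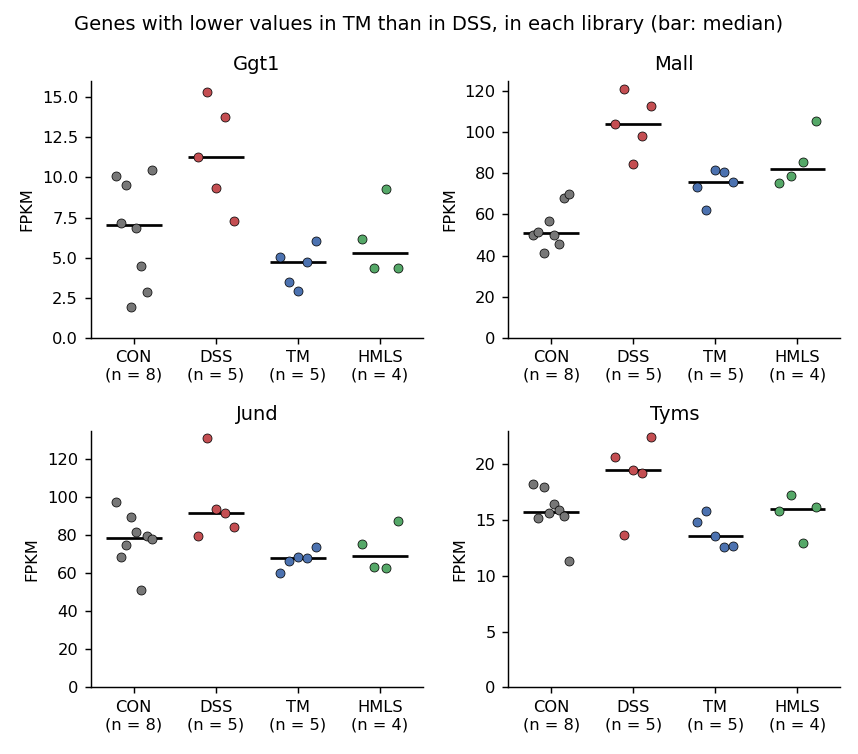
FPKM of Ggt1, Mall, Jund and Tyms in each library of the 4 groups, with group medians as bars. For Ggt1, Mall and Jund all TM points lie below all DSS points, and for Tyms DSS replicate 2 lies within the TM range.

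Mall, a raft protein of the MAL family in epithelial cells (chromosome 2, 127704386 to 127729932, minus strand), was at 104, 121, 84.4, 98.4 and 113 FPKM in DSS and at 73.4, 62.0, 81.7, 80.6 and 75.8 FPKM in TM. The groups did not overlap, although TM replicate 6 came close to DSS replicate 5, and the difference was -0.47 ± 0.127. The CON median was lower still, at 50.8 FPKM, and that of HMLS was 82.4 FPKM. Jund, a subunit of the AP-1 transcription factor (chromosome 8, 70698949 to 70700616, plus strand), was at 79.2, 131, 93.5, 91.6 and 84.3 FPKM in DSS and at 59.9, 66.4, 68.5, 68.0 and 73.4 FPKM in TM (-0.49 ± 0.138), without overlap.

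Around Jund, immediate early genes, which are induced within minutes by growth signals and stress, had lower values in 17 of 22 tested. Besides Jund, Dusp5, a phosphatase of the ERK kinases, had an unadjusted p under 0.05 (-0.54 ± 0.239), while Dusp2, a related phosphatase of immune cells, had one with higher values (0.66 ± 0.229). Jun was at 59.4, 99.2, 108, 84.7 and 173 FPKM in DSS and at 41.1, 69.8, 63.1, 99.1 and 87.1 FPKM in TM (-0.51 ± 0.256). DSS replicate 7 held the highest value of Jun and of 11 of 26 list genes, against 12.8% of all genes tested. The list median of -0.20 was 0.05 without that library, -0.40 without DSS replicate 1, -0.13 without TM replicate 6, -0.48 with the replicate block and 0.41 with the mapped share as a covariate. The number of lower genes with an unadjusted p under 0.05 was 2, against 0.899% of all genes tested, and 8 with the block or without DSS replicate 1. Over all genes tested the lower count was 288 of 13341 with the block and 231 of 13279 without DSS replicate 1. The number for the list was 1 without DSS replicates 6 or 7 or TM replicates 3, 5 or 6.

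The remaining genes with the smallest p and lower values had small differences. They were Cdk18, a cyclin-dependent kinase (-0.40 ± 0.115), Metrnl, a secreted protein of the mucosa (-0.42 ± 0.138), Tyms, the thymidylate synthase of replicating cells (-0.42 ± 0.130), Rims2, a synaptic vesicle protein (-0.51 ± 0.154), Pcdh17, a protocadherin (-0.38 ± 0.122), Sft2d1, a vesicle transport protein (-0.32 ± 0.109), and Zfp488, a zinc finger protein (-0.36 ± 0.125). Vmn1r58 (-0.43 ± 0.125) and Olfr613 (-0.46 ± 0.139) are genes of chemosensory receptor families. Whether their reads come from other members of these families was not tested. Of 24 tested proliferation genes Tyms was the only one with an unadjusted p under 0.05, against 0.899% of all genes tested with lower values. The list median of 0.04 changed sign in several settings. It was -0.61 with the mapped share as a covariate, -0.22 without TM replicate 3, 0.28 without DSS replicate 1 and -0.01 under quantile normalization.

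Epithelial function genes differed little. Of 30 tested colonocyte genes 22 lay below 0 (median -0.21, and 0.13 with the mapped share as a covariate), and only Mall had an unadjusted p under 0.05 (4 genes lower with the replicate block). These compare with 0.899% of all genes tested with lower values, and with 288 of 13341 with the block. The colonocyte median was -0.08 without DSS replicate 6, -0.13 without DSS replicate 7 and -0.12 without TM replicate 5. Ceacam1, an adhesion molecule of the brush border, differed by -0.37 ± 0.210. Guca2a, the precursor of guanylin, differed by 0.26 ± 0.154. The chloride exchanger Slc26a3 was at 65.5 to 180 FPKM in DSS and at 58.4 to 165.5 FPKM in TM. Goblet cell genes had a median of 0.02 over 22 tested, with none at an unadjusted p under 0.05 in either direction. With the replicate block 3 goblet cell genes had one with higher values, against 325 of all 13341 genes tested. The median was 0.24 with the block and -0.40 with the mapped share as a covariate. Leaving out single libraries gave -0.11 to 0.14, the lowest without DSS replicate 6 and the highest without DSS replicate 1.

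Junction genes, which seal the epithelium, had a median of -0.05 over 25 tested, with Mall, which the junction list also holds, as the only one with an unadjusted p under 0.05. Over all genes tested 0.899% had one with lower values. With the replicate block 1 junction gene also had one with higher values, against 325 of all 13341 genes. Cldn2, the pore-forming claudin, was at 44.9, 62.7, 44.8, 26.7 and 21.1 FPKM in DSS and at 68.6, 52.9, 38.4, 46.8 and 66.3 FPKM in TM (0.51 ± 0.282). Its difference was 0.62 with the block and -0.31 with the mapped share as a covariate. Since deep sea water is known for its minerals, transporters of magnesium and calcium were listed. None of 23 tested had an unadjusted p under 0.05, and the median was -0.11. With the replicate block 1 gene had one with lower values, against 288 of all 13341 genes. With the mapped share as a covariate 1 had one in each direction, against 404 higher and 197 lower of all genes, and the list median was 0.08. The lowest p values were those of the magnesium carriers Cnnm3 (-0.23 ± 0.116) and Slc41a3 (0.29 ± 0.161), the calcium pump Atp2b1 (-0.44 ± 0.233) and the magnesium transporter Nipa2 (-0.24 ± 0.136). Trpm6, the magnesium channel of the colon, was at 10.4 to 19.5 FPKM in DSS and at 8.63 to 24.7 FPKM in TM. Sodium absorption genes had a median of -0.02 over 13 tested. Rgmb, a BMP coreceptor, was the only 1 of 16 tested stem cell genes with an unadjusted p under 0.05 (-0.29 ± 0.121). With the replicate block 1 stem cell gene had one with higher values and none with lower values, against 325 and 288 of all 13341 genes. Lgr5, the receptor that marks crypt base stem cells, was under 0.32 FPKM in all 10 libraries.

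Markers of colitis overlapped between the groups. Reg3b, an antibacterial lectin of the epithelium, was at 25761, 15827, 7637, 10982 and 19958 FPKM in DSS and at 12530, 8762, 6769, 13843 and 5085 FPKM in TM, with overlapping groups (-0.74 ± 0.384). Lcn2, which binds bacterial iron carriers, was at 17.9, 1.40, 15.8, 2.12 and 127 FPKM in DSS and at 31.1, 48.4, 8.58, 17.9 and 8.65 FPKM in TM. S100a8, a calprotectin subunit of neutrophils, was at 4.05, 1.63, 9.39, 1.40 and 34.9 FPKM in DSS and at 45.6, 5.53, 8.57, 14.2 and 0.944 FPKM in TM. Both genes varied more than 10-fold within DSS and had their highest DSS value in replicate 7. The inducible nitric oxide synthase Nos2 was at 1.26 to 21.3 FPKM in DSS and at 3.88 to 28.2 FPKM in TM, and the cytokine Tnf at 3.39 to 8.06 and 3.56 to 10.3 FPKM.

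Of 28 inflammation genes 14 were tested, 5 of which needed the TM libraries to pass the filter and 4 the DSS libraries. Of the 14, 2 had an unadjusted p under 0.05, both chemokines with higher values in TM, against 1.85% of all genes tested. Ccl20, which attracts CCR6-bearing lymphocytes, differed by 1.08 ± 0.433, and Cxcl1, which attracts neutrophils, by 0.997 ± 0.463. Neither reached it without DSS replicate 2. Cxcl1 was at 10.8 FPKM in TM replicate 3 and at 0.198 to 5.48 FPKM in the other libraries. The list median of 0.23 was 0.07 without TM replicate 3, 0.56 without DSS replicate 7, 0.10 without DSS replicate 2, -0.08 with the replicate block and 0.82 with the mapped share as a covariate. With the block 1 gene had an unadjusted p under 0.05. The difference of Cxcl1 was 0.27 with the block and 1.52 with the covariate. Of the 23 antimicrobial genes none had an unadjusted p under 0.05 (median -0.02). The median was 0.03 under quantile normalization and -0.06 with the replicate block. Leaving out single libraries gave -0.26 (without TM replicate 3) to 0.01 (without DSS replicate 1), and 2 genes had one with lower values without DSS replicate 5 and 1 without DSS replicate 6 or TM replicate 7. Over all genes tested the lower counts in these 3 settings were 231 of 13288, 101 of 13283 and 110 of 13308.

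Genes of glycolysis and hypoxia had lower values in 24 of 30 tested, with small differences and a median of -0.16, which lay between -0.22 and -0.07 over every setting. None had an unadjusted p under 0.05, but 6 had one with lower values with sample quality weights, 4 without DSS replicate 5 and 3 without TM replicate 3. Over all genes tested the lower counts in these settings were 219 of 13341, 231 of 13288 and 125 of 13265. Without any such change the lower share was 0.899%. With the replicate block, or without DSS replicate 1 or DSS replicate 2, the number for the list was 1. Examples were Car9, a carbonic anhydrase induced by hypoxia (-0.30 ± 0.164), Egln3, an oxygen-sensing hydroxylase (-0.32 ± 0.221), and the glycolytic enzymes Pgk1 (-0.29 ± 0.163) and Pkm (-0.25 ± 0.147). Clock genes had a median of -0.22 over 18 tested, led by Bhlhe40, a repressor of clock genes (-0.43 ± 0.203). No clock gene had an unadjusted p under 0.05, but under the replicate block 5 had one with lower values and 1 with higher values. Over all genes tested the block gave 288 lower and 325 higher of 13341. DSS replicate 5 held the highest value for 13 of 19 clock genes, against 17.4% of all genes tested. The clock median was 0.06 without that library and 0.02 without TM replicate 3.

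One library stood apart in interferon genes, which cells switch on through STAT and IRF factors when they sense virus, bacteria or interferon itself. TM replicate 8 held the highest value of the 10 libraries for all 26 listed interferon-induced genes, against 7.38% of all genes tested, and for 23 of the 26 it was the highest of all 22 libraries. Gbp3, a guanylate-binding protein that attacks intracellular microbes, was at 50.2 FPKM in TM replicate 8 and at 1.08 to 5.92 FPKM in the other 9. Rsad2 (viperin, an antiviral enzyme) was at 13.6 FPKM there and at 1.06 to 4.43 FPKM elsewhere, and Ifit3, which binds viral RNA complexes, at 8.41 FPKM and 0.438 to 2.08 FPKM. Tap1, the peptide pump of MHC class I, was at 60.3 FPKM and at 7.73 to 16.5 FPKM in the others. Il22, a cytokine of innate and T lymphocytes, was at 4.25 FPKM in this library and listed at 0 in all 5 DSS libraries.

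The direction of the interferon list depended on single libraries. Its median was 0.13 over 23 tested genes, -0.31 without TM replicate 8 and -0.13 without DSS replicate 5, and no member had an unadjusted p under 0.05 in these fits. Summed over the list, the level was 303, 323, 117, 274 and 349 FPKM in DSS and 225, 178, 214, 179 and 1185 FPKM in TM. Apart from TM replicate 8, the TM libraries lay within the DSS range. TM replicate 8 also held the highest value for 10 of 12 MHC class I genes and 7 of 11 MHC class II genes, and its mapped share of 91.1% was inside the TM range.

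**Figure D5:**
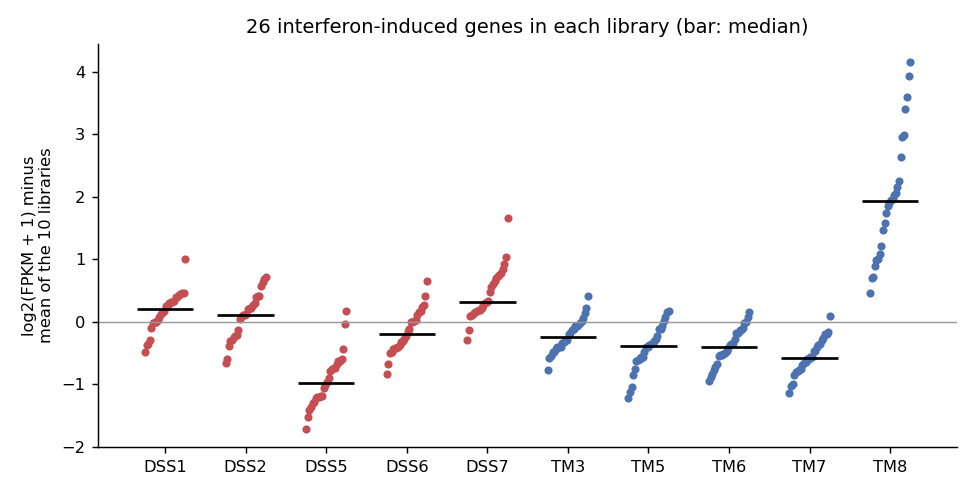
Each of 26 interferon-induced genes as log2(FPKM + 1) minus its mean over the 10 libraries, by library (red DSS, blue TM), with the median as a bar. TM replicate 8 has a median of 1.92 and the other libraries lie between -0.98 and 0.32.

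The promoters of these genes are shown because the genes were high together in one library. In RefSeq promoter windows of GRCm38.p6 (250 bases before to 50 after the start of the gene), the interferon-stimulated response element was searched on both strands as GAAA, any pair of bases and GAAA again, overlapping matches included. Of the 26 genes, 19 were matched by symbol and 12 of these held the element, as did 3.44% of all 32851 windows of this length. The 4 windows below were chosen after the values were seen, and capitals mark the matches on either strand.
Gbp3, chr3:142559794-142560093, plus strand: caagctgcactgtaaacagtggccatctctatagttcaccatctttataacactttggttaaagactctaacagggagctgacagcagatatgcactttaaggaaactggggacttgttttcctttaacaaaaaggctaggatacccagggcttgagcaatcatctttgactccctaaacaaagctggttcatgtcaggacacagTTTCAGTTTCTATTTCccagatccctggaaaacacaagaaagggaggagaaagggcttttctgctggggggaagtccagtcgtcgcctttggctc
Rsad2, chr12:26456403-26456702, minus strand: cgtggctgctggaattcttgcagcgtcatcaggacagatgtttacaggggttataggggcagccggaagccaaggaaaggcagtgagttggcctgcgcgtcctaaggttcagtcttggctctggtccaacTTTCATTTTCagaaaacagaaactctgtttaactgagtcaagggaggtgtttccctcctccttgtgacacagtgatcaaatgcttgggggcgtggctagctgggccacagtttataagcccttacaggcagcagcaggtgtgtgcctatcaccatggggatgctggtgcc
Ifit3, chr19:34583279-34583578, plus strand: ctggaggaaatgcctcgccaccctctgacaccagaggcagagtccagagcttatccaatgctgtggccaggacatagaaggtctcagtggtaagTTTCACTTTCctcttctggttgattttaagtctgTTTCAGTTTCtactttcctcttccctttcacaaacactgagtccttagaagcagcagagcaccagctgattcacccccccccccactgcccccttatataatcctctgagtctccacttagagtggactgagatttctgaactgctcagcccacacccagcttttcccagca
Isg15, chr4:156200769-156201068, minus strand: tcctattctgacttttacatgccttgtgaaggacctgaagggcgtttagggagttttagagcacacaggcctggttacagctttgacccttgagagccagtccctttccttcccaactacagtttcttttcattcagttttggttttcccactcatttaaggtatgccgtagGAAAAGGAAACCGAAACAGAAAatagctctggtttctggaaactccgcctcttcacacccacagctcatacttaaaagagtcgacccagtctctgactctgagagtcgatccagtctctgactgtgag

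The element occurs 2 times in the Gbp3 and Ifit3 windows, 1 time in that of Rsad2 and 3 times, overlapping, in that of Isg15. A match describes the letters in the window and is not a binding site. Other elements were searched in the same way for the other groups. The octamer ATTTGCAT was in none of 18 matched plasma cell genes and in 3 of 18 B cell genes (1.74% of all windows). Mzb1, which lies on chromosome 18, was not searched. The PU.1 element GAGGAAGT was in 2 of 23 macrophage genes (3.2% of windows), and the AP-1 element TGANTCA in none of 21 immediate early genes (7.81% of windows).

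Other single libraries also held the highest values of many genes of a group. TM replicate 3 was at 707 FPKM for Reg4, a secreted lectin of deep crypt cells, where the other 9 libraries were at 1.45 to 131 FPKM. It was at 2166 FPKM for the goblet cell peptide Spink4, where the others were at 108 to 445.5 FPKM. Outside the comparison, CON replicate 1 (Reg4 315 and Spink4 1481 FPKM) and HMLS replicate 6 (396 and 806 FPKM) were also the highest of their groups. TM replicate 3 held the highest value for 14 of 26 proliferation genes and 13 of 30 macrophage genes, against 14.3% of all genes tested. DSS replicate 7, the library with the lowest mapped share, held the highest value for 14 of 18 neuron and glia genes, against 12.8% of all genes tested. With DSS replicate 7, TM replicate 3 and TM replicate 8 all left out, a choice made after the values were seen, 197 genes had an unadjusted p under 0.05 with higher values in TM and 84 with lower values, and none passed the adjusted threshold. In that setting 8 macrophage, 2 B cell and 1 plasma cell gene had an unadjusted p under 0.05 with higher values, with list medians of 0.54, 0.43 and 0.02.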

How the data were processed

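Colon RNA was sequenced in 22 libraries (8 CON, 5 DSS, 4 HMLS, 5 TM). Per the submitters' processing notes, bcl2fastq 2.20, Bowtie, TopHat2 2.0.13 and Cufflinks 2.2.0 were used on mm10, with no settings stated. The authors deposited 1 table of 23997 genes, read here as FPKM because the notes name Cufflinks and the table names no unit. For every library, read counts (total and mapped) and the mapped percent were deposited too. Libraries held 48089882 to 63193922 reads in DSS and 55174666 to 68733410 in TM. The reads behind each gene are unknown, so precision rests on the spread between libraries. FPKM is relative to the library total, so very abundant genes press on all others.

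Groups came from the labels. The limma model (version 3.58.1, R 4.3.3, trend and robust variance) took log2(FPKM + 1) of genes that reached 1 FPKM in 4 or more of the 14 DSS, HMLS and TM libraries. TM minus DSS was tested with Benjamini-Hochberg adjustment over all 13341 genes at 0.05. The scripts were tested on simulated data. For the 4 library measures a two-sided exact permutation test was used (scipy 1.17.1), with adjustment over them. TM and DSS share replicate numbers 5, 6 and 7. After group means were removed, the same numbers correlated at 0.438, 0.265 and 0.143 across genes, all above 0.1, although only 1 of the 3 correlated best with its own number. A fit with the number as a block is therefore given where it moves a count given here by over 1.5 times. Among the groups fitted, numbers 1 and 2 occur only in DSS, so the DSS side of that fit rests on replicates 5, 6 and 7. A shift under the block is thus also one of the libraries used. HMLS and CON levels are description only.

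Named were 12 genes per direction by smallest p (predicted genes, small RNAs and pseudogenes left out), 4 per list with the smallest p, and a panel of 24, and members further named were chosen after their values were seen. The groups compared, the 37 lists and the members described were chosen with earlier results of these data known. A gene that the naming rule selects is not reported here. The mitochondrial genome list matched no gene. Positions are from GENCODE M21 on GRCm38, promoter sequences from RefSeq on GRCm38.p6. The alternatives were 11 other settings and leaving out each of the 10 libraries, and 1 setting with 3 libraries left out was added after the data were seen.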

Additional observations from a re-analysis of the deposited data

Results flagged for a closer look

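Within each group of 5 libraries, sets of values were examined for 1 library far from the other 4. Of 198 sets, of genes and of library measures, 16 were found. Some of the genes are not printed above, and some were chosen after their values were seen. The rate of about 1 in 20 that chance alone gives therefore cannot be set against these 16. Of the 16, 8 were in TM replicate 8, 3 in TM replicate 3 and 2 in DSS replicate 7.

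The 8 in TM replicate 8 were high values of Gbp3 (50.2 FPKM), Gbp6 (26.2), Rsad2 (13.6), Ifit3 (8.41), Tap1 (60.3), Nlrc5 (6.82), Zbp1 (56.2) and Il22 (4.25). All but Il22 belong to interferon-induced genes or to antigen presentation by MHC class I. Zbp1, a sensor of nucleic acids, was at 7.15 to 11.3 FPKM in the other TM libraries and at 4.09 to 29.1 FPKM in DSS.

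In TM replicate 3, Cxcl1 (10.8 FPKM), Pgk1 (208 FPKM) and Reg4 (707 FPKM) were far above the other TM libraries. In DSS replicate 7, Il1b (9.17 FPKM) and Vmn1r58 (5.57 FPKM) were far above the other DSS libraries. DSS replicate 1 was highest for Itgax (1.87 FPKM) and Zfp488 (68.2 FPKM), and DSS replicate 5 was lowest for Pkm (243 FPKM).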

How the results depend on the processing

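In all 22 other settings no gene passed, and the lowest adjusted p was 0.0771 (Mzb1, limma, without TM replicate 8). Of the 67 genes printed with a difference, 63 kept its sign in every setting. The sign turned for the other 4 only with the mapped share as a covariate, where the differences were 0.17 for Dusp5, 0.17 for Jun, -0.31 for Cldn2 and 0.12 for Atp2b1; the cause was not tested. With the replicate number as a block all 67 kept their sign, 0 genes were called, and the number with an unadjusted p under 0.05 was 325 higher and 288 lower in TM, against 247 and 120. The counts without a filter on low values were 397 and 316 over 20967 genes, with at least 5 FPKM 132 and 85 over 9589 genes, with sample quality weights 388 and 219, and with the mapped share as a covariate 404 and 197. Leaving out single libraries gave 141 to 332 higher and 84 to 231 lower. Median-ratio scaling (251 and 116) and quantile normalization (248 and 138) moved little.

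Leaving out single libraries, the difference in percent mapped lay between 3.89 and 5.54 and that in the share of the 10 most abundant genes between -3.16 and -2.20. The adjusted exact p of these differences reached 0.0635 and 0.0952. The groups did not overlap in percent mapped whichever library was left out, and with a library fewer the smallest possible exact p is larger. For reads the differences lay between 4936800 and 9294030, the latter without DSS replicate 6 with an adjusted exact p of 0.0317. Depth per gene is unknown, and with 5 libraries a group, small differences could not be called.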

Other observations

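Several groups outside the comparisons above are given as values. Among 16 fat cell genes tested, none had an unadjusted p under 0.05 (1 lower with the replicate block, against 288 of all 13341 genes) and the median was -0.10. Their summed level was 228 to 351 FPKM in DSS and 208 to 362 FPKM in TM, and 220 to 1892 FPKM in CON, so neither colitis group reached the highest CON libraries. The genes of oxidative phosphorylation (21 tested, median -0.01) and of the unfolded protein response (22 tested, median -0.05) had none with an unadjusted p under 0.05, in limma, in either direction. Of 25 lipid metabolism genes none had one (median -0.06). Of the 5 tested neutrophil genes all lay above 0, with a median of 0.57 that was 0.18 without TM replicate 3 and 1.08 without DSS replicate 7, and 11 of the 16 matched neutrophil genes did not pass the filter on low values. Among 13 matched mast cell and eosinophil genes 1 was tested.

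The spread between libraries was of similar size to these differences. The median coefficient of variation over genes was 23.4% in DSS, 18.1% in TM, 21.1% in HMLS and 16.1% in CON. The first principal component over the 10 libraries held 31.8% of the variance, and DSS and TM libraries were mixed along it.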
